A study of Drosophila melanogaster with 3 samples.

Results

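The mitochondrial ribosomal protein genes of Drosophila melanogaster were taken as the protein-coding genes whose symbol starts with mRpL or mRpS and a digit in the Ensembl gene models for dm6. There were 73 of them among 13968 protein-coding genes on the chromosome arms, 47 for the large ribosomal subunit and 26 for the small one. The rule reads names only, so tko and bonsai, small-subunit protein genes with names of their own, are not among the 73.

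Binding of Mabi (CG15479, mabiki) was profiled by ChIP-seq (sequencing of DNA bound by an immunoprecipitated protein) in whole 0-4 h embryos of both sexes pooled. Per the labels, the transgenic line stably expressed Mabi fused at its C-terminus to GFP, sonicated fragments measured 200 to 800 bp, and precipitation used an antibody against GFP. All 3 biological replicates carried the same fusion and formed 1 group, with no untreated, untagged or second condition, so every comparison below is between genes and none is between conditions. The authors deposited a list of 30000 peaks for each replicate and for the pooled replicates. A further list of 5049 peaks had passed the irreproducible discovery rate (IDR), a measure of how well peak ranks repeat between replicates. A gene was counted in a list if at least 1 of its annotated transcription start sites (TSSs) had a peak's summit no more than 1000 bp away, and it is called bound below if that list was the IDR list. Whole embryos of this age hold many cell types, so a peak is an average over them. The read depth behind the lists is unknown here. The gene for Mabi itself held the strongest peak in the IDR and pooled lists and ranked 1, 2 and 1 in replicates 1, 2 and 3.

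Mitochondrial ribosomes translate the few proteins encoded by mitochondrial DNA, all of which are subunits of the respiratory chain and the ATP synthase. Their RNA comes from the mitochondrial genome, but their proteins are encoded in the nucleus, made in the cytoplasm and imported. Some of these proteins descend from those of the bacterial ancestor, and others were added in the mitochondrial lineage. In the early embryo, both mitochondria and messenger RNAs are supplied largely by the mother.

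The sequences below show the letters beside IDR summits of 5 bound genes at which a motif of housekeeping promoters or an E-box was found. Motif 1 at mRpS16 and the E-box at mRpL27 were also found and are not shown. The sequences are given on the strand of the mitochondrial ribosomal protein gene, 5′ to 3′, from the RefSeq copy of the dm6 genome. The matched motif in each lies within 100 bp of a summit. Capitals mark the matched motif: TATCGATA, the DNA replication-related element (DRE), then the E-box CACGTG, then core promoter motif 1, GGTCACAC, which in the last line reads in the other orientation. The first 2 lie on chrX:1890213-1890242 and chrX:1890128-1890157, plus strand, 29 and 114 bp before the start of mRpL16. The third is on chr3R:11408029-11408058, plus strand, 125 bp after the start of mRpL40. The fourth is on chr3L:2373686-2373715, minus strand, where the E-box is centred 4 bp after the outermost of the 3 annotated starts of mRpL23 and 22 bp before the next. The fifth is on chr2L:4459593-4459622, minus strand, 31 bp after the outermost of the 2 annotated starts of mRpL27 and before the other. The last is on chr3L:16004730-16004759, plus strand, 449 bp before the start of mRpS31 and next to the start of the divergent gene hzg.
mRpL16 DRE: aatcggtggtcTATCGATAtatgtttttag
mRpL16 E-box: attattgtgttcCACGTGcaatatggcaca
mRpL40 motif 1: acctggtccctGGTCACACaatcactcact
mRpL23 E-box: tgttggacaaccCACGTGcttttacacggg
mRpL27 motif 1: ctgaactcgggGGTCACACtggtgcccatc
mRpS31 motif 1: acgtgtgattaGTGTGACCgcggtggatgc

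Of the 73 genes, 18 were bound, which is 24.7%, against 18.4% of all protein-coding genes. The bound large-subunit genes were mRpL2, mRpL11, mRpL16, mRpL23, mRpL27, mRpL28, mRpL32, mRpL40, mRpL41, mRpL43 and mRpL53, 11 of 47. The bound small-subunit genes were mRpS6, mRpS10, mRpS16, mRpS21, mRpS23, mRpS26 and mRpS31, 7 of 26. Both subunits were therefore represented, at 23.4% of large-subunit and 26.9% of small-subunit genes. In the pooled list, 58 of the 73 genes had a summit (79.5%), against 56.6% of all genes.

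The replicates gave similar counts. Replicate 1 placed a summit at 57 of the 73 genes (78.1%), against 53.5% of all genes. Replicate 2 also placed one at 57 (78.1%), against 56.3% of all genes, and replicate 3 at 61 (83.6%), against 56.0%. The mean was 79.9% ± 3.16 of the mitochondrial ribosomal protein genes and 55.3% ± 1.53 of all genes (SD, n = 3 replicates). The gap was wider than this spread between replicates. The SD describes how repeatably the same genes were counted, and not the error of a difference between sets of genes. All 3 replicates had a summit at 49 of the 73 genes (67.1%), against 43.0% of all genes. With only the 5049 strongest peaks of each replicate, the counts were 18, 18 and 19 genes, a mean of 25.1% ± 0.791, against 17.7% ± 1.09 of all genes (SD, n = 3). Of the 73, 15 genes had such a strong summit in all 3 replicates (20.5%), against 12.6% of all genes. The replicates were called against the same control file, so they are not independent of it.

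**Figure D1:**
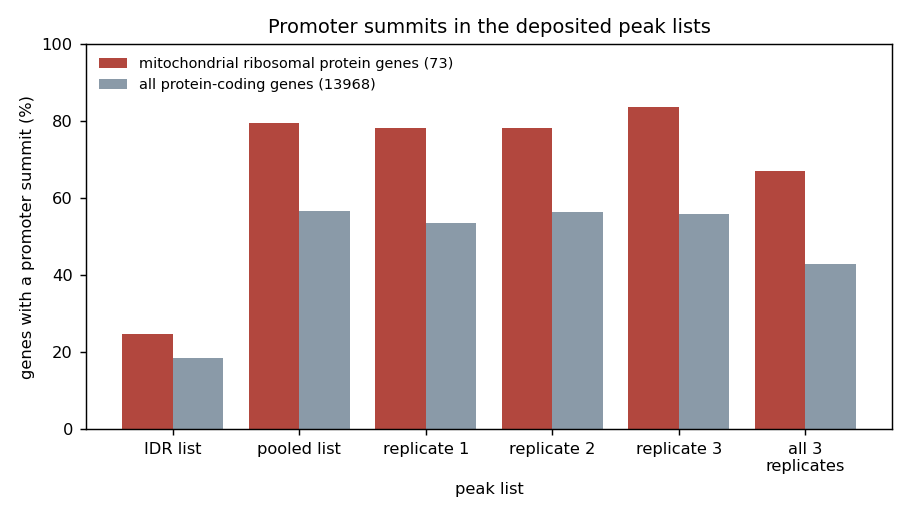
Percent of genes with a promoter summit (y axis) in each deposited peak list, for the mitochondrial ribosomal protein genes and all protein-coding genes. The share is higher for the mitochondrial ribosomal protein genes in every list when any summit within 1000 bp is counted, for example 24.7% against 18.4% in the IDR list and 79.5% against 56.6% in the pooled list.

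These shares have to be read beside where the genes sit. Of the 73 genes, 60 (82.2%) had a TSS of another protein-coding gene within 1000 bp, against 42.8% of all genes, and the other 13 did not. For 58 of the 73 (79.5%) this neighbour started on the opposite strand and ran away from the gene, an arrangement called divergent, against 36.2% of all genes. The divergent start was 20 to 793 bp away, with a median of 283 bp, and no neighbour was itself a mitochondrial ribosomal protein gene. A summit between divergent starts counts for both genes. Genes as a whole were more often bound when they had a neighbouring start (1537 of 5985, 25.7%) than when they had none (12.9%).

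With a neighbouring start, 17 of 60 mitochondrial ribosomal protein genes were bound (28.3%), against 25.7% of all genes with one. Without a neighbouring start it was 1 of 13 (7.69%), against 12.9% of all genes without one. In the IDR list the difference between the mitochondrial ribosomal protein genes and all genes was therefore small with a neighbour. Without one the share was lower, but it rests on 1 bound gene of 13 and cannot give a direction. The pooled list kept a wider gap among genes with a neighbour, 53 of 60 (88.3%) against 73.3%. For genes without one, the pooled list gave 5 of 13 (38.5%), against 44.0% of all genes. Summits in all 3 replicates were found at 44 of 60 genes with a neighbour (73.3%), against 59.1% of all genes with one, and at 5 of 13 without (38.5%), against 30.9%.

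The same appeared when each summit was given only to the gene whose TSS was nearest. By that count, 9 of the 73 genes had an IDR summit of their own (12.3%), against 14.0% of all genes. In the pooled list, 35 had one (47.9%), against 47.0%. Both shares were close to the background. Among genes with a neighbouring start, 30 of 60 had a pooled summit of their own, against 51.9% of all such genes, and 8 (13.3%) an IDR summit of their own, against 15.9%. The wider pooled gap seen when any summit counted was thus not present when summits went to the nearest start.

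**Figure D2:**
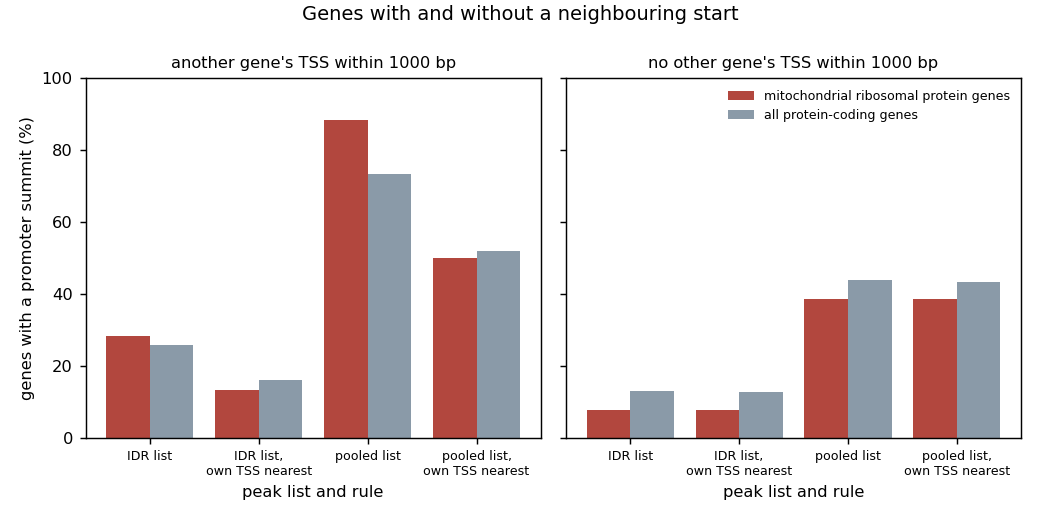
Percent of genes with a promoter summit (y axis) in the IDR and pooled lists, counting any summit and only those nearest the gene's own TSS, with genes divided by whether a TSS of another protein-coding gene lies within 1000 bp, for the mitochondrial ribosomal protein genes and all protein-coding genes. In the IDR list the pairs are 28.3% against 25.7% with a neighbouring start and 7.69% against 12.9% without one.

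The 18 bound genes held 25 IDR summits in 22 intervals. Of these, 24 lay within 1000 bp of another gene's start as well. A TSS of the mitochondrial ribosomal protein gene was the nearest one for 10 summits, and a neighbour's was nearest for 15. For 7 genes every summit was nearest their own start, for 9 every summit was nearest a neighbour's, and mRpL27 and mRpL43 had 1 of each kind. Thus 9 of the 18 had an IDR summit nearest their own start, against 1962 of the 2566 bound genes as a whole. A neighbouring start was present at 17 of the 18, against 1537 of the 2566. For 8 summits the distances to the gene's own start and to the nearest other start differed by less than 100 bp. Such a difference is small beside the sonicated fragments and the peaks, whose commonest IDR width was 496 bp with the summit at the midpoint in 99.8% of peaks of that width. Only 5 genes (mRpL16, mRpL40, mRpL41, mRpL43 and mRpS26) had a summit nearer their own start by at least 100 bp.

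The strongest bound gene was mRpL16 (FBgn0023519), which encodes the mitochondrial relative of the bacterial large-subunit protein L16. Its main summit, on chrX:1889892-1890557, lay 59 bp before its start, and the divergent neighbour, 306 bp away, was trr, a histone methyltransferase of the trithorax group. This peak ranked 192 of 5049 with a deposited signal value of 1628, whose scale the sources used here do not give. Signals were therefore also divided by the median of their own list, which for mRpL16 gave 7.86, 10.8 and 12.2 in replicates 1, 2 and 3, a mean of 10.3 ± 2.22 (SD, n = 3). Here and below, a replicate's value is that of its strongest summit within 1000 bp, so the replicates can differ in summit. mRpL16 was high in all 3 replicates, where it ranked 399, 172 and 203 of 30000. A second summit lay in an intron, 143 bp after the start, at rank 2318.

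mRpS10 (FBgn0038307), the counterpart of bacterial S10 in the small subunit, followed at rank 219 with a signal of 1561. Its summit, on chr3R:15229355-15229720, lay 120 bp before the outermost of its 2 starts and 157 bp before the other. The start of Art3, an arginine methyltransferase gene, was 137 bp from this summit. In replicates 1, 2 and 3 it reached 6.57, 13.8 and 8.77 times the list median. Replicate 2 stood highest, and the mean was 9.70 ± 3.68 (SD, n = 3). These genes stood apart from the other 16, none of which ranked above 1007.

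mRpL40 (FBgn0037892), a large-subunit protein with no bacterial counterpart, was the only bound gene without a neighbouring start, the nearest other one lying 1914 bp from its summit. Its peak, on chr3R:11407792-11408099, had its summit 43 bp after the start, in an untranslated exon, with rank 1007 and signal 804. The values of 5.34, 5.07 and 5.73 times the list median in replicates 1, 2 and 3 were close together, with a mean of 5.38 ± 0.332 (SD, n = 3). This SD was the smallest among the 18 bound genes.

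The other genes with a summit of their own were mRpL41, mRpL23, mRpL27, mRpL43, mRpS26 and mRpL28. mRpL41, at rank 1169, had the largest spread between replicates for its mean, with 2.21, 7.45 and 3.85 times the list median in replicates 1, 2 and 3. mRpL23 belongs to the family that sits by the exit tunnel of the ribosome. It has 3 annotated starts, the outermost 24 bp from that of CG9004. Its summit, on chr3L:2373472-2373698 at rank 1544, lay 94 bp after that start, 68 bp after the second and 109 bp before the third. In replicates 1, 2 and 3 it reached 2.43, 5.23 and 4.12 times the list median. mRpL27 belongs to a family that reaches towards the peptidyl transferase centre. Its stronger summit, at rank 1545, was 16 bp before the outermost of its 2 starts and 52 bp before the other. Its second summit was 4 bp from the start of CG15435. Its replicate values of 3.52, 4.52 and 4.59 times the list median were close together. Of the 2 summits of mRpL43, the stronger, at rank 1863, was nearer to CG30183 and the weaker, at rank 3970, lay 10 bp before the start of mRpL43. mRpS26 and mRpL28 had the weakest strongest peaks of all bound genes, at ranks 4693 and 4729. mRpS26 had 1.61, 1.52 and 3.07 times the list median in replicates 1, 2 and 3, with replicate 3 highest. mRpL28 had 2.40, 2.20 and 1.61, with replicate 3 lowest.

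At the other 9 bound genes each summit was nearer to the neighbour. For mRpS23 the neighbour was CenG1A, an Arf GTPase-activating protein gene, with a summit at rank 1034 that lay 382 bp before the mRpS23 start and 110 bp from that of CenG1A. Its values of 2.89, 7.42 and 3.98 times the list median in replicates 1, 2 and 3 had replicate 2 far above the others. mRpS16 and the zinc finger gene cg started 97 bp apart, and the summit between them, at rank 1039, was 69 bp from the first start and 28 bp from the second. It had 3.12, 5.71 and 5.73 times the list median in replicates 1, 2 and 3, with replicate 1 lowest. The summits of mRpS6, mRpL2 and mRpS21 lay farthest from the mitochondrial ribosomal protein gene. Their strongest ones were 795, 821 and 764 bp before its start, beyond the start of the divergent gene. In replicates 1, 2 and 3, mRpS6 had 5.69, 4.48 and 5.54 times the list median, mRpL2 had 2.40, 5.36 and 5.98, and mRpS21 had 4.65, 4.02 and 6.09. The replicate 1 value was thus low at mRpL2 and not at mRpS6 or mRpS21. At mRpL2, however, the replicates need not show the same summit. In replicate 3 its strongest peak was also that of FoxK, at rank 1096. In replicates 1 and 2, FoxK had stronger peaks not within 1000 bp of the mRpL2 start, at ranks 1361 and 488, against 3807 and 960 for mRpL2. The divergent genes were Cip4, which encodes an F-BAR protein, the forkhead gene FoxK, and Droj2, a gene for a DnaJ-type chaperone.

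mRpL32 shared a summit at rank 2243 with qless, a gene of coenzyme Q synthesis, whose start was 48 bp away. mRpL11, whose bacterial relative forms the base of the ribosome's stalk, shared one at rank 2593 with HtrA2, the gene of a mitochondrial serine protease. The 2 summits of mRpS31 were nearer to hzg, and the stronger had rank 3339. The summit of mRpL53, at rank 4398, was nearest to AGO1, the Argonaute of the microRNA pathway. The gene model of mRpL53 starts at the same base as that of CG33155, and the lists cannot tell those starts apart. Of these 4 genes, mRpL32 and mRpL11 were lowest in replicate 1, at 2.19 and 2.43 times the list median. mRpS31 was lowest in replicate 2, at 2.19, and mRpL53 reached 1.81, 1.83 and 3.60 in replicates 1, 2 and 3.

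**Figure D3:**
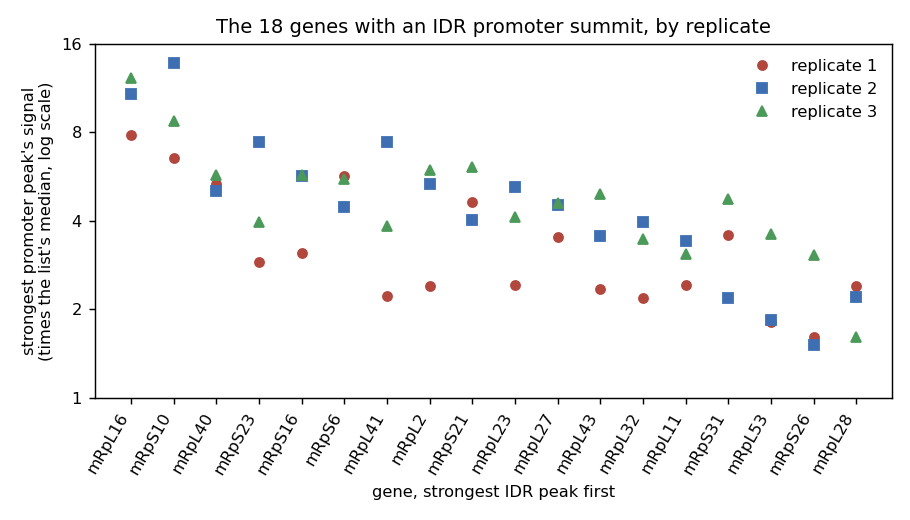
Signal of the strongest promoter peak, divided by the median of its own list (log y axis), in replicates 1, 2 and 3 for each bound mitochondrial ribosomal protein gene (x axis, strongest IDR peak first). mRpL16 and mRpS10 lie highest, mRpL40 has its 3 points close together, and replicate 1 is lowest in 12 of 18 genes.

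Replicate 1 gave the lowest of the 3 values at 12 of the 18 bound genes, replicate 2 at 5 and replicate 3 at 1. Over all bound genes with a value in each replicate, these shares were 57.6%, 32.1% and 10.3%. The median rank percentile of the 18 genes in the IDR list was 27.3, where a lower value is a stronger peak, against 47.9 for all bound genes. In signal this was a median of 681 against 487. Among the 5049 strongest peaks of single replicates, however, the median percentiles of the mitochondrial ribosomal protein genes were 64.5, 26.5 and 34.9 in replicates 1, 2 and 3. Those of all genes were 47.7, 45.4 and 47.4. Among these strongest peaks, the genes were thus weaker than the rest in replicate 1 and stronger in the other two, and the spread between replicates (SD 20.0, n = 3) was about as large as the difference in the IDR list. In the full list of replicate 1, where 57 of the genes had a peak, their median percentile was 27.5, against 30.5 for all genes. In the pooled list, where 58 of the genes had a peak, the median percentile was 28.2, against 28.8 for all genes.

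Across genes with a summit in both replicates of a pair, the signals of the mitochondrial ribosomal protein genes correlated with Spearman's rho of 0.770 for replicates 1 and 2 (51 genes). The value was 0.861 for replicates 1 and 3 (52 genes) and 0.748 for replicates 2 and 3 (55 genes). Over all genes the values were 0.746, 0.782 and 0.832. These correlations describe genes within these libraries, which share a control.

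Summits lay mostly before the gene. Of the 25 IDR summits, 21 (84.0%) were upstream, against 62.9% of the 3571 gene and summit pairs over all genes. The median distance to the start was 143 bp, against 212 bp. None of the 25 lay more than 200 bp after the start. Over all genes, successive 200 bp bins from there to 1000 bp held 7.06%, 4.65%, 3.95% and 3.61% of IDR pairs. In the pooled list these bins held 6.12%, 2.04%, 1.02% and 2.04% of pairs of the mitochondrial ribosomal protein genes. The pooled values over all genes were 8.21%, 5.53%, 5.26% and 5.35%. Since 17 of the 18 genes have a divergent neighbour, their upstream side is also the neighbour's 5′ side, and 13 of the 25 summits, at 12 genes, lay between a pair of divergent starts. In the pooled list, 72.4% of 98 pairs were upstream, against 58.3% of 15424 over all genes. The mitochondrial ribosomal protein genes are also short, with a median gene length of 909 bp, against 2164.5 bp for all genes, and had 1.10 annotated starts each, against 1.41.

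**Figure D4:**
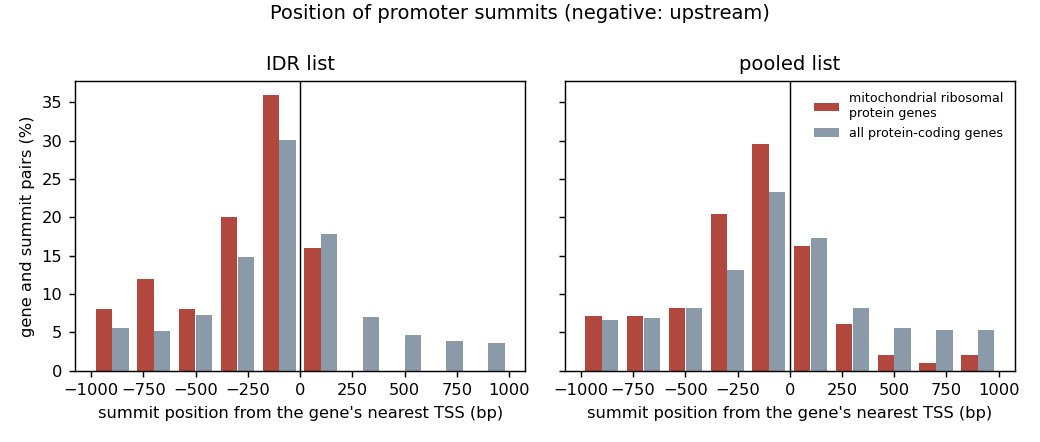
Distribution of summits by distance from the gene's TSS (x axis, bp, negative is upstream; y axis, percent of gene and summit pairs), in bins of equal width, for the mitochondrial ribosomal protein genes and all protein-coding genes. In the IDR list 84.0% of the 25 pairs of the mitochondrial ribosomal protein genes are upstream, against 62.9% over all genes.

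The other 55 genes had no IDR summit. Of these, 31 had a summit in every replicate (42.5% of the 73), against 24.8% of all genes. Another 17 had one in 1 or 2 replicates (23.3%), against 24.3% of all genes, and 7 had none in any list (9.59%), against 32.1%. The IDR list was identical to the 5049 strongest pooled peaks, so the limit is one of signal. Just outside it were mRpL1, with a pooled peak at rank 5130 and a signal of 288 whose summit lay 43 bp before its start, and mRpL35, at rank 5198 with 285 and 36 bp before its start. Just inside were mRpS26 at rank 4693 with 309 and mRpL28 at rank 4729 with 308. The signal thus changed little across the limit.

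After mRpL1 and mRpL35 came mRpL44, mRpL34 and mRpS17, at pooled ranks 5429, 5662 and 6506. Their summits were nearer to neighbours, which were Snr1, a subunit gene of the Brahma chromatin remodelling complex, Dg, which encodes dystroglycan, and Nop60B, a pseudouridine synthase gene. mRpS30, mRpL24 and mRpL19 followed with summits nearest their own starts, then mRpL48 and mRpL22 with summits nearest CG17660 and if, an integrin gene. Of the 31 genes with a summit in every replicate, 30 had a pooled one, with signals of 0.764 to 2.20 times the list median, and mRpL49 had none. The 7 genes in no list were mRpL38, mRpL45, mRpL50, mRpL52, mRpS25, mRpS33 and mRpS34. The nearest pooled summit was 1375 bp away for mRpS33, the closest, and 19918 bp away for mRpS25, the farthest. Of these genes, mRpL45, mRpS33 and mRpS34 had no neighbouring start.

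The genes can also be divided by bacterial ancestry. Of 42 genes with a relative in the bacterial ribosome, 11 were bound (26.2%), against 7 of the 31 without one (22.6%) and 18.4% of all genes. In the pooled list the counts were 37 of 42 (88.1%) and 21 of 31 (67.7%), against 56.6% of all genes. IDR summits nearest the gene's own start were held by 5 of 42 (11.9%) and 4 of 31 (12.9%), against 14.0% of all genes. The bound genes were spread over the arms, with 3 of 12 genes on 2L, 4 of 12 on 2R, 5 of 17 on 3L, 5 of 21 on 3R and 1 of 11 on X. Of all genes on these arms, 17.8%, 17.6%, 18.7%, 18.2% and 20.0% were bound, in the same order. No mitochondrial ribosomal protein gene lies on chromosome 4 or Y.

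Other nuclear genes for mitochondrial proteins can be set beside these counts. Of 19 genes for mitochondrial DNA replication, transcription and translation factors, 5 were bound (26.3%). They were mEFTs, an elongation factor (rank 1188), mtTFB2, a transcription factor (rank 2803), PolrMT, the mitochondrial RNA polymerase (rank 3346), mRF1, a release factor (rank 4287), and mIF3, an initiation factor (rank 4840). Of 15 genes for mitochondrial aminoacyl-tRNA synthetases, which load tRNAs with amino acids, 2 were bound (13.3%), LeuRS-m at rank 3813 and AspRS-m at rank 4293. Of 15 genes of the import machinery, 3 were bound (20.0%), Tim17a2, Tim10 and Tim17b2. Of 91 nuclear genes of the respiratory chain and ATP synthase, 15 were bound (16.5%), with COX7AL2 (rank 668) and ATPsyndelta (rank 740) the strongest. These mitochondrial lists thus ran between 13.3% and 26.3%, around the 18.4% of all genes.

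In the IDR list, the cytoplasmic ribosomal protein genes differed from them in level. Of 93 such genes, 42 were bound (45.2%), and 35.5% of the 93 had an IDR summit nearest their own start, against 12.3% of the mitochondrial ribosomal protein genes. RpL7, RpL24-like and RpS25 were the strongest, at ranks 252, 266 and 316. The 93 were taken by symbol, so they include RpL24-like and RpLP0-like (rank 1287), both without an IDR summit nearest their own start. In all 3 replicates, 87.1% of the cytoplasmic ribosomal protein genes had a summit, against 67.1% of the mitochondrial ones. With only the strongest peaks of each replicate, as counted above, the gap in all 3 replicates was narrow. It was 23 of 93 (24.7%) against 15 of 73 (20.5%). The cytoplasmic share of such strong summits varied between replicates, at 35.5%, 55.9% and 43.0% in replicates 1, 2 and 3. The mitochondrial shares were 24.7%, 24.7% and 26.0%. tko and bonsai had no IDR summit, and their pooled peaks ranked 11538 and 12103.

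**Figure D5:**
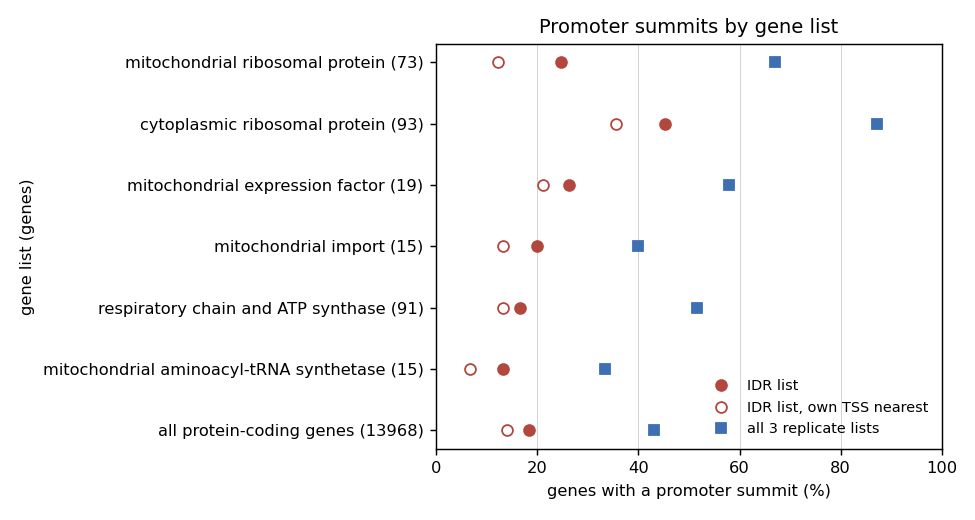
Percent of genes with a promoter summit (x axis) in the IDR list (filled circles), in the IDR list with only summits nearest the gene's own TSS counted (open circles) and in all 3 replicate lists (squares), for the mitochondrial ribosomal protein genes, 5 other gene lists and all protein-coding genes. The mitochondrial ribosomal protein genes stand at 24.7%, 12.3% and 67.1%, the cytoplasmic ones at 45.2%, 35.5% and 87.1%, and all genes at 18.4%, 14.0% and 43.0%.

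Motifs were counted on both strands from 250 bp before to 50 bp after each gene's most upstream start. The DRE, the binding sequence of the factor DREF, was present in 15 of the 73 promoters (20.5%), against 9.36% of all promoters. It was held by 3 of the 18 bound genes (16.7%), against 13.6% of all bound genes, and by 12 of the 55 others. Motif 1 stood in 8 promoters (11.0%), against 7.69% of all, and the E-box in 5 (6.85%), against 4.20%. The TATA sequence TATAAAA was found in 23 promoters (31.5%), against 24.2% of all, and these were 2 of the bound genes (11.1%), against 22.8% of all bound genes, and 21 of the others. Motif 1 and the E-box were each held by 3 of the 18 bound genes (16.7%), against 12.0% and 5.69% of all bound genes.
Of the remaining motifs, the NRF-1 type sequence GCGCATGC stood in 1 promoter (1.37%), against 1.05% of all. The GAGA sequence GAGAGAG also stood in 1 (1.37%), against 5.86%. The ETS type sequence CCGGAAG and the Zelda sequence CAGGTAG stood in none, against 1.09% and 1.64%. The promoters had a median GC content of 34.7%, against 38.0% of all.

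The letters within 100 bp of the 25 IDR summits were set beside those of the 2655 IDR summits that lay within 1000 bp of a protein-coding TSS, as these 25 do. Motif 1 was present at 4 of the 25 summits (16.0%), against 3.54% of the 2655. These were at mRpL27, mRpL40, mRpS16 and mRpS31, where the summits of mRpS16 and mRpS31 were nearest the starts of cg and hzg. The E-box was present at 3 summits (12.0%), against 3.43%, at mRpL16, mRpL23 and mRpL27, and the DRE at 1 (4.00%), against 3.47%, at mRpL16. The mRpL27 summit with the E-box was the one nearest the start of CG15435. GAGA stood at 1 summit (4.00%), against 12.5%, and Zelda at none, against 4.18%. TATA stood at 4 (16.0%), against 7.83%. The 2655 summits were not matched for a neighbouring start, while 24 of the 25 lay within 1000 bp of another gene's start as well. The counts are small, a match is a description of letters and not of a bound site, and a missing match says nothing about the factor.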

How the data were processed

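The authors deposited peak lists on dm6 for 3 biological replicates, their pool and the IDR selection. Deposited columns give a summit, a signal value of unstated scale and a −log10 q value. Per the deposited text files, 1 shared control file served all replicate lists. The sources used here name neither aligner nor peak caller, and read depth is unknown. Every IDR peak had a deposited −log10 q of 4.16, so peaks were ranked by signal, within a list only.

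Summits were assigned to genes of Ensembl release 115. Sequence came from RefSeq's copy of genome Release 6 (dm6), within whose arms every peak ended. Members and lists were chosen with earlier results of these data known, and division by bacterial ancestry was added after seeing values. Genes named are all bound genes with the neighbours nearest their summits, the next 10 in pooled rank with a summit in every replicate, and those in no list. Genes of other lists, tko and bonsai were named after their values were seen. The symbols mtRF1 and mtRNApol were not found. Counts are given beside those of all protein-coding genes, with no p-values. Assignment was checked on simulated peaks. Python 3.11.15, numpy 2.4.6 and pandas 2.3.3 were used. Alternatives were other windows, 1 TSS per gene, whole intervals, stronger peaks, IDR summits matched within 100 bp in all 3 replicates, and leaving out each replicate. The background of IDR summits near a TSS, for motifs, was chosen after seeing the data.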

Additional observations from a re-analysis of the deposited data

How the results depend on the processing

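No paired analysis was possible because the 3 replicates form 1 group. Leaving out each replicate kept IDR peaks that overlapped, by at least 50% of either peak, one of the 5049 strongest peaks in both others. The 18 bound genes then became 15, 14 and 16 without replicates 1, 2 and 3 (20.5%, 19.2% and 21.9%), against 14.9%, 13.3% and 13.1% of all genes. No peaks were called anew without a replicate, so these counts could only stay at 18 or fall. Windows of 250, 500 and 2000 bp gave 14, 15 and 20 bound genes (19.2%, 20.5% and 27.4%), against 12.1%, 15.1% and 22.7%. The lowest count was 13 (17.8%). It was reached with the 2524 strongest IDR peaks, against 9.52% of all genes, and with summits within 100 bp in all 3 replicates, against 10.9%.

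By this selection of IDR peaks, 14 genes stayed bound whichever replicate was left out. Of these, mRpL11 was lost with the 2524 strongest IDR peaks and mRpL32 with the 100 bp limit. The 250 bp window lost mRpL2, mRpS6, mRpS21 and mRpS23. mRpL53, mRpS26, mRpL28 and mRpS31 were each lost without at least 1 replicate. Own summits were left at 7 to 8 genes without 1 replicate (9 as reported). Their share against all genes changed order with the setting. It was above that of all genes at 250 bp (12.3% against 10.3%) and, barely, at 500 bp (12.3% against 12.2%). The same held with 1 TSS per gene (13.7% against 12.4%), with the 2524 strongest IDR peaks (8.22% against 7.47%) and without replicate 3 (11.0% against 10.3%).

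The median rank percentile became 23.4 to 23.9 without 1 replicate, against 33.9 to 38.6 for all genes, a narrower gap than the 27.3 against 47.9 reported. Only the choice of peaks changed here, as the ranks still came from the signal of all 3 replicates. The values therefore cannot show how far the ranks depend on 1 replicate. With the 2524 strongest IDR peaks the median rank percentile was 23.2 against 24.1. With the full lists of both other replicates, the 58 genes with a pooled summit became 47 to 50 (64.4% to 68.5%), against 40.6% to 44.8% of all genes, and the 49 with a summit in every replicate 51 to 55 (69.9% to 75.3%), against 45.9% to 48.3%. By construction the pooled count could not rise and the count in every replicate could not fall. The 49 became 28 at 250 bp (38.4%), against 23.9% of all genes, and 15 with the 5049 strongest peaks of each replicate (20.5%), against 12.6%. Read depth was not available, so a gene in no list is below the list's limit and not shown to be unbound.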
